A study of Mus musculus with 21 samples.

Results

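The average effect of 3 mutant alleles of Pax6 on the transcripts of the embryonic cortex was taken as the mean of the Sey, Leca4 and Leca2 changes, each being the mutants of a line minus their own littermate controls. A gene entered the description when this average passed the test and the change had the same sign in all 3 lines. All 21 arrays of the series entered the average, and 1190 of 13850 genes (8.59%) met the rule. The arrays fell into 6 groups. The Sey line, of strain C57BL/6J x DBA/2J (B6D2F1), had 4 mutant and 3 control arrays. The Leca4 line, of strain 129 S6, had 3 mutant and 4 control arrays, and the Leca2 line, also of strain 129 S6, had 4 mutant and 3 control arrays. Every embryo was untreated and at embryonic day 14, and RNA came from rostral cerebral cortex. The labels give the controls the genotype wild type, call arrays of a group biological replicates and do not say whether mutants carried 1 or 2 mutant copies.

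Pax6 is a transcription factor of radial glia, the progenitor cells of the dorsal telencephalon, and is known for roles in neurogenesis, proliferation and regional identity of the cortex. It binds DNA through a paired domain, made of a PAI and a RED subdomain, and through a homeodomain. The Small-eye allele, Sey, truncates the protein, whereas general knowledge, not checked here, places the Leca4 mutation in the PAI and the Leca2 mutation in the RED subdomain. The average over the alleles asks which transcripts moved alike whichever of these parts was altered.

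The median log2 value of an array was 6.03 at least and 6.26 at most, and arrays of 1 group correlated with r between 0.9931 and 0.9972 across genes. Precision is limited by how many arrays there are. The cortical marker Emx1 lay between 9.14 and 10 on every array, and Neurod6, a gene of cortical neurons, between 11.79 and 12.90. Neurod6 was lower in Sey mutants (11.79 to 12.54) than in Sey controls (12.74 to 12.90), without overlap, while its Leca groups overlapped. Sex, read from Xist and Y-linked genes, was not balanced: the mutants were 1 male and 3 females in Sey, 2 males and 1 female in Leca4 and 2 males and 2 females in Leca2, and the controls were 3 males, 3 males with 1 female and 3 females. Since the Sey line differs from both Leca lines in strain, allele and strain cannot be told apart where lines differ. RNA was measured in bulk, so that fewer cells of a type and less RNA per cell cannot be told apart. A gene is called here when its Benjamini-Hochberg adjusted p in limma was under 0.05, and it is said to rise or fall only then. All values are log2 expression, changes are differences of log2 values, and ± after a change gives the fit's standard error.

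The average effect passed the test for 1814 genes, 13.1% of those tested, of which 1078 were higher (7.78%) and 736 lower (5.31%). Of the 1814 genes, 1190 (65.6%) had the same sign in all 3 lines, against 28.8% of all genes without a test. The average is made of the same 3 changes, so choosing on it favours a shared sign, and the higher share is no measure of agreement. These were 722 higher genes (5.21% of those tested) and 468 lower genes (3.38%). The Sey line weighed most in this count. It held the largest of the 3 changes in 901 of the 1190 genes (75.7%, against 51.2% of all genes), Leca4 in 228 (19.2%, against 32.9%) and Leca2 in 61 (5.13%, against 15.9%). Their median size of change was 0.42 in Sey, 0.16 in Leca4 and 0.11 in Leca2, and in 762 of them the smallest of the 3 changes was under 0.1. Without the Sey line, 304 genes (181 higher, 123 lower) were called with the same sign in both Leca lines. Without the second Leca2 control array, 804 genes (500 higher, 304 lower) met the rule, 787 of them among the 1190.

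Tested within their own line, 917 of the 1190 genes were called in Sey, 257 in Leca4 and 37 in Leca2. Over all genes the lines had 2791 (20.2%), 779 (5.62%) and 66 (0.477%) calls. Exactly 1 line was called in 868 genes, a pair of lines in 152 and all 3 lines in 13. Another 157 genes, 92 higher and 65 lower, were called in the average and in no line alone. The 3 changes differed from each other by more than the spread between arrays (limma F-test) in 424 of the 1190 genes, 35.6%, against 12.5% of all genes. The genes nearest the threshold were Ncapg2, a condensin subunit (0.25), and Vim, the vimentin of radial glia (-0.09), just inside, with D130043K22Rik (0.19) and P3h2 (-0.17) just outside.

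**Figure D1:**
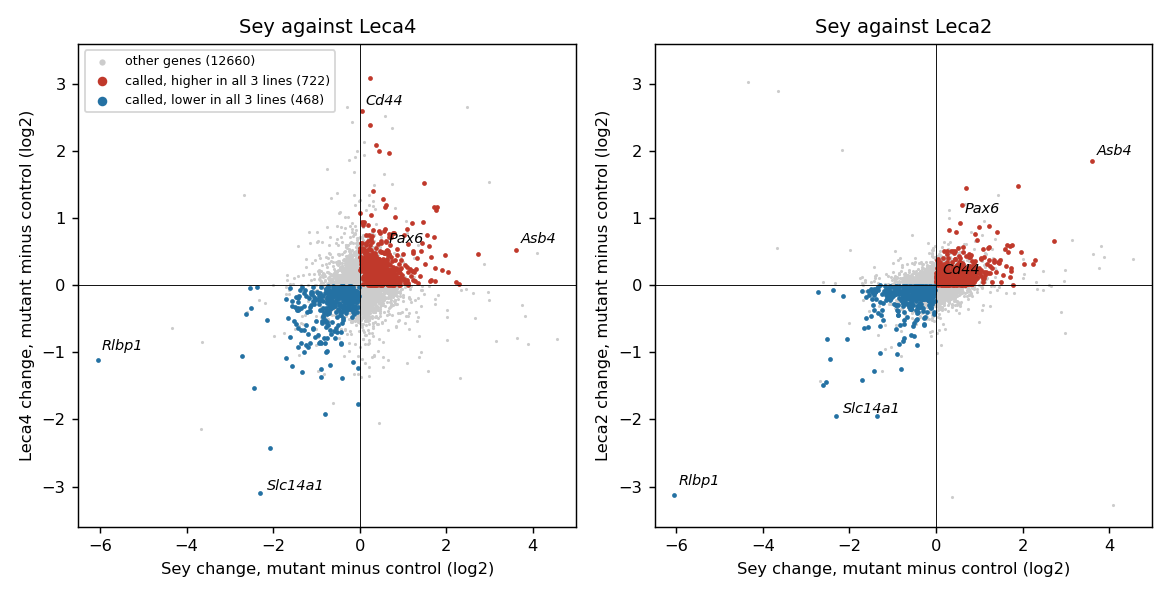
Change of each gene in Sey (horizontal axis, log2) against its change in Leca4 (left) and in Leca2 (right, vertical axes, log2); red and blue points are the 722 higher and 468 lower genes called in the average with the same sign in all 3 lines, grey points the other 12660 genes. The coloured clouds extend along the Sey axis, with Rlbp1 and Slc14a1 labelled among the lower genes and Asb4, Pax6 and Cd44 among the higher ones.

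Each line was then read without its own change having been used to choose the genes. All lines shared the estimate of a gene's spread, and a small spread favours calls in either direction. Calls in the third line are therefore not independent of the choice. Of 304 genes called in the mean of Leca4 and Leca2 with the same sign in both, 232 (76.3%) changed in the same direction in Sey, against 61.6% of the 6472 genes that had the same sign in both Leca lines. In 139 of them (45.7%, against 18.1%) Sey was itself called in that direction, and in 14 it was called the opposite way (4.61%, against 4.54%). Genes chosen on Sey and Leca2 numbered 1812, of which 1017 (56.1%, against 49.1%) had that direction in Leca4. Leca4 was called in the same direction in 153 of them (8.44%, against 3.42%) and in the opposite one in 73 (4.03%, against 2.36%). Genes chosen on Sey and Leca4 numbered 1934, of which 1272 (65.8%, against 55.2%) had that direction in Leca2 and 34 (1.76%, against 0.512%) were called there, with 1 called the opposite way (0.0517%, against 0.0415%). These counts are descriptions, and no test of them was made.

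**Figure D2:**
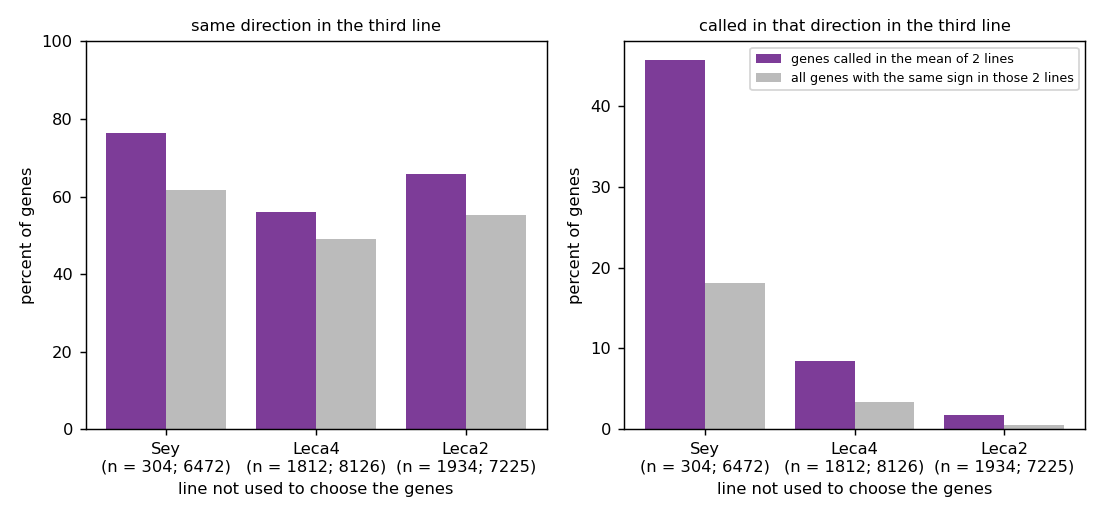
For each line left out of the choice of genes, the percent of genes that had the same direction in it (left) and that were called in that direction in it (right); purple bars are the genes called in the mean of the other pair of lines, grey bars all genes with the same sign in that pair, and n gives both numbers. The purple bar is the higher one in all 3 lines, with 45.7% against 18.1% called in Sey and 1.76% against 0.512% in Leca2.

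Promoters of the genes were searched for the core letters of a paired-domain site, TTCACGC, and for a pair of homeodomain cores, TAAT, then NNN, then ATTA, on both strands of the 250 bases before each start in RefSeq (GRCm38.p6). A RefSeq promoter was found for 11114 of the 13850 genes, for 576 of the 722 higher and for 378 of the 468 lower genes. The paired-domain letters stood in 8 promoters of higher genes (1.39%) and in 9 of lower genes (2.38%), against 1.74% of all genes tested. The homeodomain pair stood in 1 promoter of a higher gene and in none of a lower gene, against 0.243% of all genes tested. The shares in the members were near these backgrounds. Shown are the promoters with the letters, in capitals, of the pair of higher and the pair of lower genes whose smallest change was largest, followed by that of Rlbp1, the gene that fell most, which held neither motif. Sgo2a encodes a shugoshin that protects sister chromatids, Fbxl7 an F-box protein and Ppp1r14c an inhibitor of protein phosphatase. They were chosen for the letters and for their values, and a match describes the sequence, not binding.
Rtkn, chr6:83136834-83137083, plus strand: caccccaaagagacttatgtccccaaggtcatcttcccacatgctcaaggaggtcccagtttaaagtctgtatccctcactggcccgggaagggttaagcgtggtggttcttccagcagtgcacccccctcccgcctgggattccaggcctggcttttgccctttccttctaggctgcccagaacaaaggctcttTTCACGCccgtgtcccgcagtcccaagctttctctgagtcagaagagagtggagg
Sgo2a, chr1:57995724-57995973, plus strand: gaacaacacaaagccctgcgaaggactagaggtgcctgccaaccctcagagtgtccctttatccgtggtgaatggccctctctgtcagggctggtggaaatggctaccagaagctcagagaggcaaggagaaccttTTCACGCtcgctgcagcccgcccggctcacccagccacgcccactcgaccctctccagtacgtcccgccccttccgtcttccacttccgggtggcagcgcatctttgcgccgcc
Fbxl7, chr15:26895565-26895814, minus strand: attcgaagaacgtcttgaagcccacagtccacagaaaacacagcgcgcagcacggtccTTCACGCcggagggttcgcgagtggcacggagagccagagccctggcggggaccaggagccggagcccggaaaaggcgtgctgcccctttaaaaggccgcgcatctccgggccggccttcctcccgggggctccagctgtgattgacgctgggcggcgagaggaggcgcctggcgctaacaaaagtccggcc
Ppp1r14c, chr10:3365900-3366149, plus strand, GCGTGAA being TTCACGC on the other strand: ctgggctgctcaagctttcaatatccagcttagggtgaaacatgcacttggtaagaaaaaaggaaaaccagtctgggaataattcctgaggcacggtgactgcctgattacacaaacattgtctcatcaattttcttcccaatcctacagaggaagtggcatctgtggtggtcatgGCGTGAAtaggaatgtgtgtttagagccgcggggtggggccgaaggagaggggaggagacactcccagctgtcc
Rlbp1, chr7:79387028-79387277, minus strand: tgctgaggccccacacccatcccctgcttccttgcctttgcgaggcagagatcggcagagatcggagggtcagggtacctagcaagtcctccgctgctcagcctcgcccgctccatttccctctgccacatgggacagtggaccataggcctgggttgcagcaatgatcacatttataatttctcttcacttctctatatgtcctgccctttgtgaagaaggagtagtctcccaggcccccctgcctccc
Rtkn changed by 0.90 in Sey, 0.32 in Leca4 and 0.36 in Leca2, and Sgo2a by 0.74, 0.37 and 0.17. Fbxl7 changed by -0.61, -0.12 and -0.35, and Ppp1r14c by -1.15, -0.86 and -0.12. All 4 were called in the average.

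Large changes in every line were few. In 24 genes, 11 higher and 13 lower, the fitted change of each line was at least 1.4-fold. In 4 of these, the lower genes Rlbp1, Slc14a1, Tfap2d and Lmo7, it was at least 2-fold. Since mutant groups of Rlbp1, Slc14a1 and Tfap2d lay under the level used to filter dim genes, these fitted sizes are not bounds. For Tfap2d the measured fall was at least 1.95-fold in Sey and at least 1.75-fold in Leca4. A 1.4-fold change was not measured for Slc14a1 in Leca2 or for Lama1 in Sey, where values lay near or under that level. In 69 genes (0.498% of all genes), 35 higher and 34 lower, every mutant array lay beyond every control array of its line in all 3 lines. In 35 of the 69 the changes were not called to differ between lines. The 13 genes called within all 3 lines were Pax6 and Carhsp1, an RNA-binding protein, which rose, and Rlbp1, Slc14a1, Lmo7, Gna14, Igfbp5, Dapp1, Aldoc, Prkcb, Gpc3, Map7 and Rab8b, which fell. Map7 binds microtubules and Rab8b is a small GTPase of vesicle traffic.

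**Figure D3:**
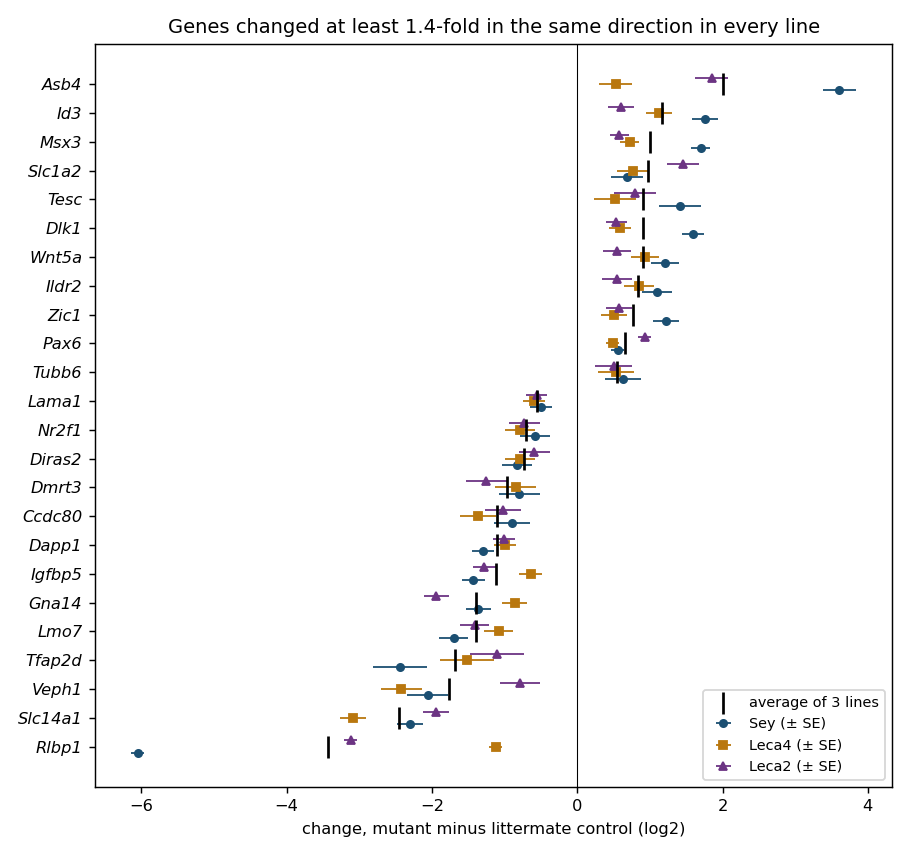
Change in Sey (circles), Leca4 (squares) and Leca2 (triangles), mutant minus littermate control on the log2 scale with the standard error of the fit. Shown are the 24 genes with a fitted change of at least 1.4-fold in the same direction in every line. Black strokes mark the average of the 3 lines. Rlbp1 and Asb4 spread widest between lines, and the symbols of Lama1, Nr2f1, Diras2, Dapp1 and Tubb6 lie close together.

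Among genes of transport and metabolism, Rlbp1 fell most. Rlbp1 encodes a protein that binds retinaldehyde in the visual cycle. On Sey arrays it read 10.54, 10.43 and 10.52 in the controls and 4.43, 4.6, 4.45 and 4.28 in the mutants. On Leca4 arrays it read 10.39, 10.52, 10.68 and 10.38 in the controls and 9.31, 9.45 and 9.38 in the mutants. On Leca2 arrays it read 10.04, 10.17 and 9.93 in the controls and 7.08, 6.77, 6.88 and 6.97 in the mutants. No mutant array reached a control array of its line, and the Sey mutants were at the lowest level. The average change was -3.43 ± 0.05 (adjusted p = 1.36e-19 in limma). Every Sey mutant array was at or below the level used to filter dim genes, between 5.37 and 5.6 over the arrays, so the fall in Sey was at least 34.5-fold, beside 2.17-fold in Leca4 and 8.70-fold in Leca2. The changes differed between every pair of lines, by 2.00 (95% interval 1.75 to 2.26) between Leca4 and Leca2.

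Slc14a1, a urea transporter, was called lower in all 3 lines. Its Sey controls read 6.11, 5.92 and 6.27 and its Sey mutants 4.16, 3.70, 3.48 and 3.87. The Leca4 controls read 6.93, 7.01, 6.65 and 6.85 and the Leca4 mutants 3.63, 3.90 and 3.76. The Leca2 controls read 6.01, 5.26 and 5.17 and the Leca2 mutants 3.47, 3.6, 3.25 and 3.78. All 11 mutant arrays lay within 3.25 to 4.16, under every control array, and all were under the filter level. The fitted average was -2.45 ± 0.10 (adjusted p = 1.9e-11 in limma), and the measured fall was at least 1.64-fold in Sey and at least 2.4-fold in Leca4, while the Leca2 controls were themselves near the filter level and allow no fold. The sizes of the falls therefore cannot be compared between lines.

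Aldoc, an aldolase of glycolysis that radial glia and astrocytes express, fell in all 3 lines, with -1.66, -0.48 and -0.64 in Sey, Leca4 and Leca2 (average adjusted p = 8.42e-09 in limma). Slc1a3, the glutamate transporter of radial glia, fell on average by 0.73 ± 0.06 (adjusted p = 7.71e-08 in limma), with 4 of its 5 probe sets lower in all lines. Slc1a2, the other main glutamate transporter of glia, rose instead. Its Sey arrays read 7.98, 8.58 and 8.36 in controls and 9.21, 9.26, 8.75 and 8.75 in mutants. In Leca4 they read 8.13, 8.40, 8.65 and 8.82 against 9.23, 9.60 and 8.97, and in Leca2 7.64, 8.48 and 8.57 against 9.54, 9.47, 9.92 and 9.79. Mutants lay above controls in each line, the gap being smallest in Leca4 and largest in Leca2. The average change was 0.97 ± 0.13 (adjusted p = 3.57e-05 in limma). Its other probe sets, of lower level, changed by 0.00 and 0.09, and the gene lies 29 protein-coding genes from Pax6 on chromosome 2.

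Among adaptors and signal transducers, Lmo7, a LIM-domain protein of cell junctions, fell by a similar amount in each line. Its controls ranged from 8.17 to 8.43 in Sey, from 8.5 to 8.64 in Leca4 and from 7.88 to 8.71 in Leca2. Its mutants read 6.58, 6.56, 6.53 and 6.63 in Sey, 7.40, 7.63 and 7.41 in Leca4 and 6.78, 6.65, 7.69 and 6.69 in Leca2. Groups did not overlap, although the Leca2 mutant at 7.69 stood close to the lowest control. The average was -1.39 ± 0.11 (adjusted p = 9.88e-08 in limma), and the changes were not called to differ between lines (adjusted p = 0.298 in limma). A second probe set of Lmo7, of lower level, fell by 0.29 on average (adjusted p = 0.00354 in limma).

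Dapp1, an adaptor that binds phosphoinositides, fell by about the same amount in each line. The Sey controls read 6.21, 6.33 and 6.14 and the mutants 4.95, 4.6, 5.20 and 4.96. The Leca4 controls read 7.68, 7.28, 7.48 and 7.58 and the mutants 6.41, 6.75 and 6.36, and the Leca2 controls read 7.23, 7.70 and 7.11 and the mutants 6.51, 6.17, 6.28 and 6.39. Each mutant array was below all controls of its line. The Sey mutants were also below the filter level, so the fall in Sey was at least 1.79-fold and its size is not known. The fitted changes were -1.30, -1.0 and -1.01, and the 95% interval of Leca4 minus Leca2 was -0.42 to 0.44. Those of Sey minus Leca4 (-0.73 to 0.13) and Sey minus Leca2 (-0.72 to 0.14) rest on values under the filter level.

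Gna14, a G protein alpha subunit, fell in all 3 lines, with fitted changes of -1.36 in Sey, -0.86 in Leca4 and -1.94 in Leca2. The Leca4 and Leca2 changes differed by 1.09 (95% interval 0.58 to 1.59). The Leca2 mutants read 5.75, 5.14, 4.84 and 5.20, most of them under the mean filter level of that group, 5.47. The size of this difference therefore rests partly on values under the filter level. In Sey the mutants of Gna14 lay at or below the filter level, so that fall was at least 1.66-fold. The second probe set of Gna14 also fell, by 0.85 on average. Prkcb, a protein kinase C, fell in all 3 lines, most in Leca4 (-1.25), and its second probe set gave -0.80 against -0.86 on average. Diras2, a Ras-like GTPase named here for its values, fell on average by 0.73 ± 0.12, with -0.83, -0.79 and -0.59 in the lines (adjusted p = 0.000344 in limma). Veph1, a pleckstrin-homology protein of the ventricular zone, fell on average by a fitted 1.76 ± 0.16. Its Leca4 mutants lay at or below the filter level, and the measured fall there was at least 2.54-fold. Its Leca2 mutants, at 5.25, 5.41, 6.55 and 6.11, overlapped the controls at 6.19, 6.62 and 7.06.

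Among secreted and matrix proteins, Igfbp5, which binds insulin-like growth factors, changed by -1.43, -0.64 and -1.28 in Sey, Leca4 and Leca2, and Ccdc80, a matrix-associated protein, by -0.90, -1.37 and -1.02. In Igfbp5 a second probe set changed by -0.16 on average (adjusted p = 0.345 in limma), and in Ccdc80 it fell by 0.26 (adjusted p = 0.00278 in limma). Lama1, a laminin chain of basement membranes, fell on average by 0.55 ± 0.09, with -0.50, -0.60 and -0.56 in the lines ( adjusted p = 0.000179 in limma). The interval of its Leca4 minus Leca2 difference was -0.47 to 0.40, and both Sey groups lay at or below the filter level. Gpc3, a heparan sulfate proteoglycan of the cell surface named here for its values, fell in all 3 lines, with -0.43, -0.87 and -0.89.

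Transcription factors of the cortex moved in both directions. Nr2f1, also known as COUP-TFI, a nuclear receptor of area patterning, read 11.83, 11.65 and 11.51 on Sey control arrays and 10.31, 11.36, 11.31 and 11.35 on Sey mutant arrays. In Leca4 it read 11.20, 11.42, 10.91 and 11.29 against 10.81, 10.12 and 10.33. In Leca2 it read 10.72, 11.23 and 10.92 against 10.42, 10.14, 10.19 and 10.13. All mutant arrays were below the controls of their line, and 1 Sey mutant stood about a unit under the others. The changes were -0.58, -0.79 and -0.73, of which only Leca4 was called alone, and the average was -0.70 ± 0.12 (adjusted p = 0.000672 in limma). Dmrt3, a doublesex-related factor of the medial and dorsal cortex, was called in no line alone, at -0.80, -0.85 and -1.25, but fell on average by 0.97 ± 0.16 (adjusted p = 0.000412 in limma). Its Leca4 groups overlapped. Tfap2d, an AP-2 factor, fell on average by 1.69 ± 0.21, with -2.44, -1.52 and -1.10 in Sey, Leca4 and Leca2.

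Pax6 transcript itself rose in all 3 lines. The probe set of highest level read 10.60, 10.63 and 10.55 on Sey control arrays and 11.18, 11.34, 10.94 and 11.16 on Sey mutant arrays. In Leca4 it read 11.52, 11.68, 11.41 and 11.55 against 12.02, 11.86 and 12.20. In Leca2 it read 11.31, 11.12 and 11.22 against 12.20, 12.08, 12.04 and 12.26. Mutants lay above controls in every line, and the 3 control groups stood at 3 different levels. The average change was 0.66 ± 0.05 (1.58-fold, adjusted p = 8.57e-08 in limma), and the other 3 probe sets changed by 0.23, 0.54 and 0.35 on average. Since the alleles alter the protein, a higher transcript level says nothing of protein activity. Paupar, the non-coding RNA next to Pax6, rose on average by 1.20 ± 0.11, by at least 2.18-fold in Sey and at least 1.23-fold in Leca2, whereas both Leca4 groups were under the filter level.

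Other factors that rose included Id3, an inhibitor of basic helix-loop-helix factors. It read 8.13, 8.85 and 8.15 in Sey controls and 10.18, 10.36, 9.66 and 10.36 in Sey mutants. It read 8.42, 8.59, 8.42 and 8.68 in Leca4 controls and 9.56, 9.54 and 9.88 in the mutants, and 8.37, 8.0 and 8.24 in Leca2 controls and 8.44, 8.93, 8.88 and 9.0 in the mutants. The groups did not overlap in any line, but the lowest Leca2 mutant was 0.07 above the highest control. The average change was 1.17 ± 0.11 (adjusted p = 4.33e-07 in limma), and Sey exceeded Leca2 by 1.16 (95% interval 0.61 to 1.71). Msx3, a homeobox gene of the dorsal neural tube, rose on average by 1.0 ± 0.07, with 1.70, 0.72 and 0.58 in the lines. Zic1, a zinc finger factor of dorsal midline and meninges, rose by 0.77 ± 0.11, and its second probe set by 1.03.

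Wnt5a, a Wnt ligand of the cortical hem, was higher in the mutants at each of its 3 probe sets. The probe set of highest level read 7.70, 8.19 and 7.79 in Sey controls and 8.99, 9.23, 8.82 and 9.37 in Sey mutants. It read 7.56, 7.70, 7.58 and 8.08 against 8.61, 8.30 and 9.06 in Leca4 and 7.78, 7.26 and 7.57 against 7.84, 7.93, 8.39 and 8.20 in Leca2. Mutants exceeded controls throughout, by a wide margin in Sey and a narrow one in Leca2. The average was 0.90 ± 0.11 (adjusted p = 1.41e-05 in limma), and the other probe sets gave 0.89 and 0.77. Dlk1, a transmembrane ligand related to Delta, rose by 0.90 ± 0.09, with 1.59, 0.59 and 0.54.

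Of the remaining higher genes with a fitted change of at least 1.4-fold in every line, Asb4 rose most, by 2.00 ± 0.13 on average. Asb4 carries ankyrin repeats and a SOCS box. Its Leca4 mutants, at 6.86, 7.37 and 7.13, overlapped the controls, whose highest array read 7.09, and Leca4 alone was not called (0.53). Ildr2, an immunoglobulin-like receptor, rose by 0.83 ± 0.12 and Tesc, a calcium-binding protein, by 0.91 ± 0.17. Tubb6, a beta tubulin, was called in no line alone, at 0.63, 0.53 and 0.50, but rose on average by 0.55 ± 0.14 (adjusted p = 0.0137 in limma). Tesc and Tubb6 were named for their values.

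**Figure D4:**
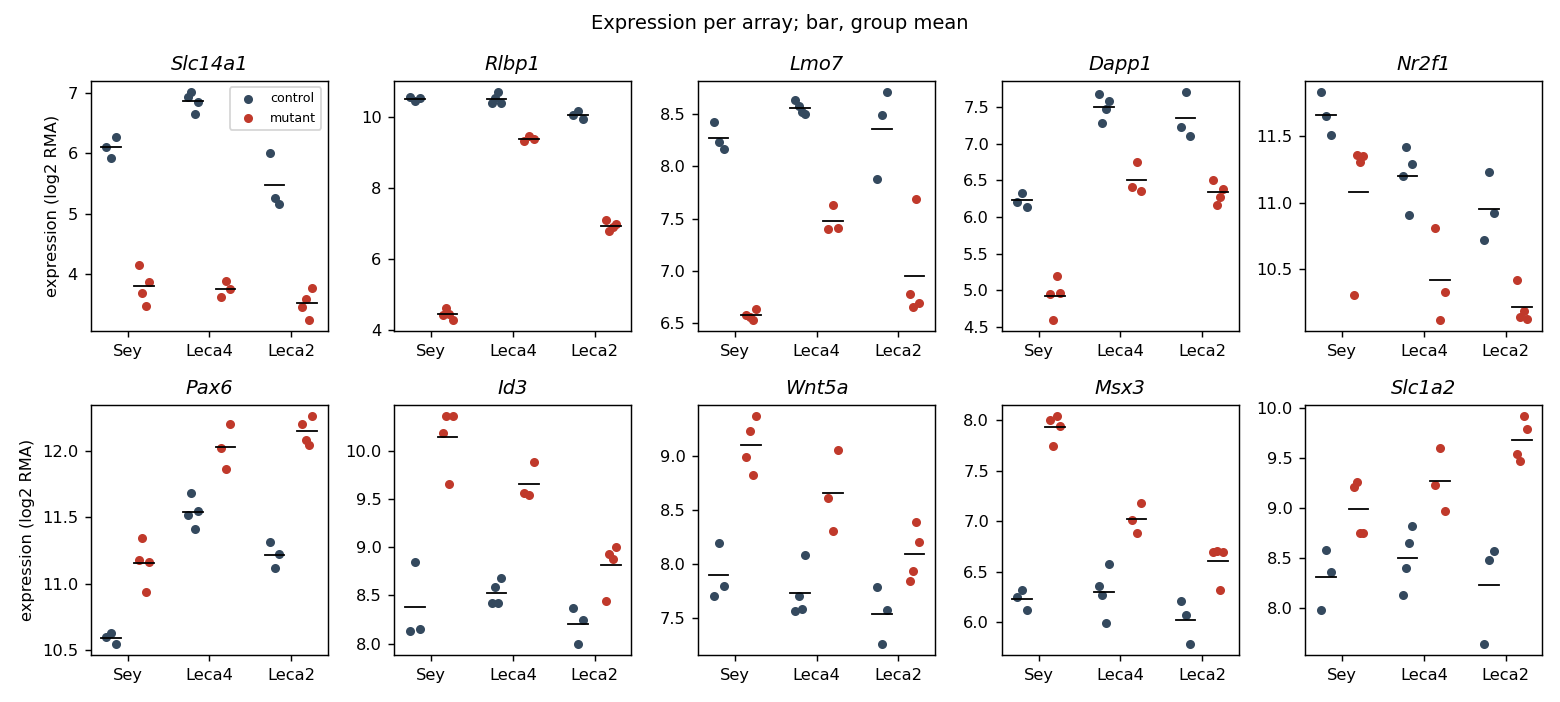
Log2 expression of 10 genes on each array, control arrays in dark blue and mutant arrays in red, for the Sey, Leca4 and Leca2 lines; black bars are group means. In each panel all mutant arrays of a line lie on the same side of its controls, below them for Slc14a1, Rlbp1, Lmo7, Dapp1 and Nr2f1 and above them for Pax6, Id3, Wnt5a, Msx3 and Slc1a2.

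Dmrt3 and the genes that follow had the smallest p-values of the average, in each direction, among those called in no single line. Higher were Dab2, an endocytic adaptor, by 0.25 ± 0.05 (0.19, 0.26 and 0.31 in Sey, Leca4 and Leca2), and the ubiquitin ligase Trim68 by 0.33 ± 0.07. Fbxo2, an F-box protein, was higher by 0.48 ± 0.11 but near the filter level, the ferroxidase Heph by 0.51 ± 0.11 and the glucosidase subunit Ganab by 0.11 ± 0.02. Lower were Galk2, a galactokinase-related kinase, by -0.36 ± 0.07, Lrrn1, a leucine-rich repeat protein, by -0.20 ± 0.04, Ccn4, a matricellular Wnt target, by -0.19 ± 0.04, and S1pr1, a sphingosine phosphate receptor, by -0.20 ± 0.05. In Galk2 the mutant arrays lay below the controls in all 3 lines, while in Ccn4 and S1pr1 they did so in 1.

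Many G1/S and G2/M genes of the cell cycle rose in the average, and within single lines their calls were all in Sey. Of 27 tested genes of the G1/S transition and DNA replication, 17 were called higher with the same sign in all lines (63.0%, against 5.21% of all genes) and none lower, with a median average change of 0.26 against 0.00 over all genes. Of 26 genes of G2/M and mitosis, 17 were called higher (65.4%) and none lower, with a median of 0.28. Mcm6, a subunit of the replicative helicase, changed by 0.83 in Sey, 0.17 in Leca4 and 0.09 in Leca2. Top2a, topoisomerase II alpha, changed by 0.91, 0.07 and 0.16, and Aspm, a spindle protein of neural progenitors, by 0.85, 0.24 and 0.28. At other probe sets, of lower level, the signs in the Leca lines varied. A second one of Top2a changed by -0.29 in Leca4 and 0.39 in Leca2. Another of Aspm gave -0.02 in Leca4 and -0.03 in Leca2, and a further one 0.45 and 0.28. On Sey arrays the proliferation marker Mki67 read 10.48, 10.58 and 10.46 in controls and 11.39, 11.53, 11.23 and 11.08 in mutants. On Leca4 arrays it ranged from 10.98 to 11.36 in controls and read 11.43, 11.49 and 10.96 in mutants, and on Leca2 arrays it lay between 11.19 and 11.69 against 11.50 to 11.97. Mutants and controls were apart in Sey and overlapped in both Leca lines. Its average change was 0.39 ± 0.08 (adjusted p = 0.00371 in limma).

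The signs of all members are given here beside those of all genes, of which 49.9% were above 0 in Sey, 52.1% in Leca4 and 52.6% in Leca2. All 27 G1/S genes were above 0 in Sey, 24 in Leca2 and 19 in Leca4, and all 26 G2/M genes were above 0 in Sey and in Leca2 and 17 in Leca4. The median changes in Leca4 were 0.07 and 0.06. Within lines, 26 genes of each list were called higher in Sey and 0 in Leca4 and in Leca2, and in the mean of the Leca lines alone 0 G1/S genes and 1 G2/M gene were called higher. Of 21 regulators of G1, 9 rose (42.9%, against 5.21% of all genes) and 1, Mycn, fell (4.76%, against 3.38%). E2f2, a transcription factor of S-phase entry, rose by 0.58 ± 0.07, and Ccnd2, a D cyclin of cortical progenitors, by 0.31 ± 0.04, although in Leca2 its other probe sets lay between -0.07 and 0.00. Cdkn1c, an inhibitor of cyclin-dependent kinases, rose on average by 0.55 ± 0.06, with 0.77, 0.78 and 0.10. Ccnd1 changed by -0.03 on average (adjusted p = 0.851 in limma).

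**Figure D5:**
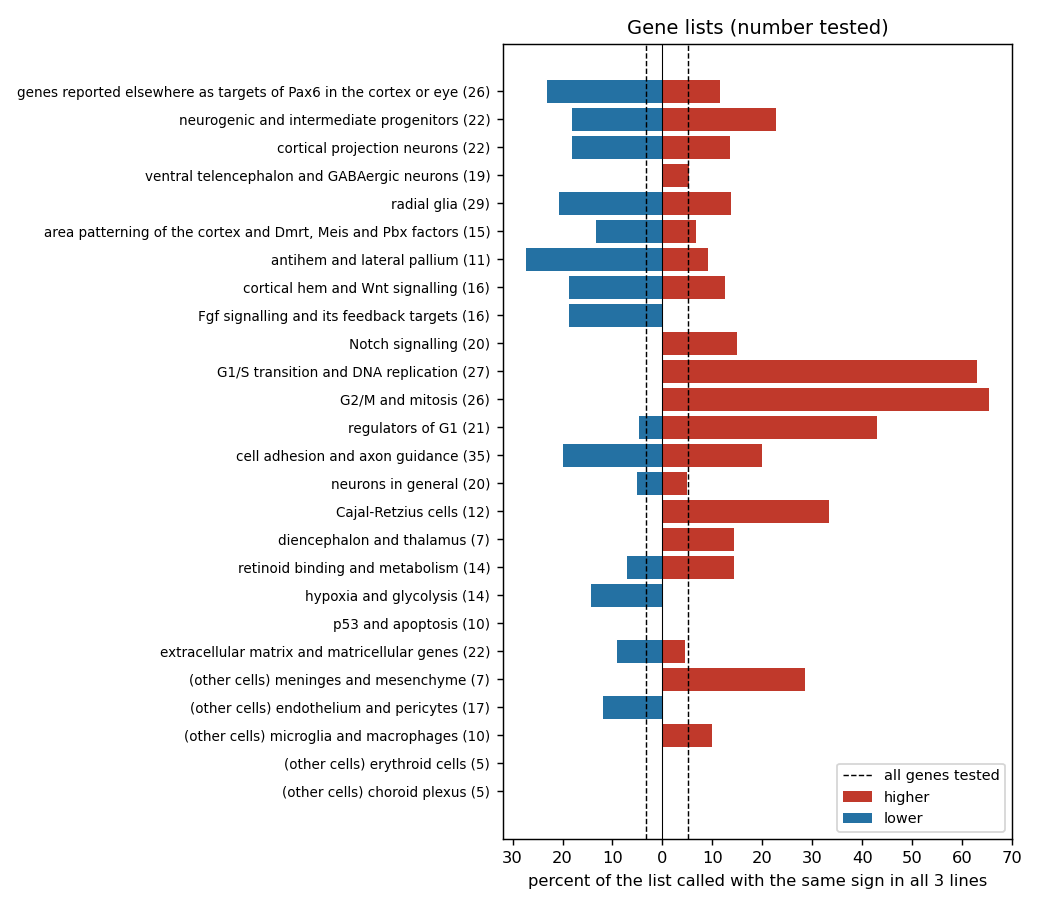
Percent of the tested members of each gene list that were called in the average with the same sign in all 3 lines, higher to the right in red and lower to the left in blue, with the number tested in parentheses; dashed lines give the same percent of all genes, 5.21% higher and 3.38% lower. The bars of G1/S, G2/M and regulators of G1 extend farthest to the right, and that of the antihem and lateral pallium, with 3 of 11 genes, farthest to the left.

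Genes of neurogenesis were split. Of 22 genes of neurogenic and intermediate progenitors, 5 rose (Dll3, Gadd45g, Hes6, Insm1 and Mfap4) and 4 fell (Cbfa2t2, Neurod4, Neurog2 and Pou3f2). These were 22.7% and 18.2%, against 5.21% of all genes higher and 3.38% lower. Neurod4, a proneural factor, fell by 1.51 ± 0.07 on average. It read 7.36, 7.5 and 7.71 in Sey controls and 5.13, 4.88, 4.72 and 4.88 in Sey mutants, 7.95, 8.31, 8.13 and 7.89 against 7.47, 7.66 and 7.81 in Leca4, and 8.20, 8.06 and 8.08 against 6.87, 6.54, 6.36 and 6.72 in Leca2. Mutants were below controls in every line, by the least in Leca4, and the fitted Sey and Leca4 changes differed by -2.19 (95% interval -2.57 to -1.82). The Sey mutants lay at or below the filter level, so the measured fall in Sey was at least 4.38-fold and the fitted difference rests on values at that level. Neurog2, the main proneural gene of the dorsal cortex, fell by 0.71 ± 0.07, with -1.61, -0.04 and -0.48. The Delta ligand Dll3 rose by 0.52 ± 0.06, with 0.86, 0.45 and 0.26.

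Neurog1 and Eomes, called lower in the average, did not share their sign. Neurog1 changed by -2.67 in Sey and -1.43 in Leca2 but by 1.34 in Leca4, and all 3 lines were called. Eomes, the marker of intermediate progenitors, changed by -1.64, -0.12 and 0.04. Tbr1, a factor of early cortical neurons, changed by -0.86, 0.03 and -0.01, and its average was not called (adjusted p = 0.0552 in limma). Of 22 genes of projection neurons, 3 rose (Crym, Lmo4 and Zfpm2) and 4 fell (Ldb2, Nrp1, Slc17a7 and Tfap2d). The shares were 13.6% and 18.2%, against 5.21% of all genes higher and 3.38% lower. Of 20 general neuronal genes Nefm rose (5%) and Syp fell (5%), near these backgrounds. Of 19 ventral and GABAergic genes 10 were called higher in the average, against 7.78% of all genes. Olig2, a factor of ventral progenitors, was the 1 that shared its sign (2.73, 0.47 and 0.66), or 5.26% against 5.21%. Dlx2 changed by 3.81 in Sey, -0.45 in Leca4 and 0.59 in Leca2.

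Of 29 radial glia genes, 4 rose (Emx2, Notch2, Pax6 and Slc1a2) and 6 fell (Aldoc, Dbi, Fabp7, Mlc1, Slc1a3 and Vim), the changes of Fabp7 and Vim being -0.10 and -0.09. The shares were 13.8% and 20.7%, against 5.21% of all genes higher and 3.38% lower. Sox2, a progenitor factor, changed by 0.55, 0.04 and -0.03 (average adjusted p = 0.118 in limma), and Hes5, a Notch effector, by 0.31, -0.03 and -0.20. Of 26 genes listed as Pax6 targets in other work, 3 rose (Cdk4, Cdk6 and Tle1) and 6 fell (Dkk3, Fabp7, Neurog2, Nr2f1, Rlbp1 and Sfrp2). These were 11.5% and 23.1%. Of 15 patterning genes 1 rose (6.67%) and 2 fell (13.3%). Of 11 genes of the antihem, a signalling source at the lateral edge of the cortex, Efna5 rose (9.09%) and Nrg1, Sfrp2 and Tfap2d fell (27.3%). Sfrp2, a secreted Wnt inhibitor, changed by -0.42, -0.06 and -0.11 and lost its call in 20 of 38 other settings, so its place among the lower genes of this and the other lists is uncertain.

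The shares of the following lists called with a shared sign, against 8.59% of all genes, rest on at most 5 genes a list. Of 16 genes of the cortical hem and Wnt pathway, Axin2 and Wnt5a rose and Dkk3, Sfrp2 and Wnt7b fell (31.2%). Of 16 Fgf genes Fgf13, Fgfr2 and Spry2 fell (18.8%, against 3.38% of all genes lower). At the probe sets used, their changes were -0.26, -0.33 and -0.38 in Sey and at most 0.16 in size elsewhere. Other probe sets weighed the lines otherwise. A second one of Fgf13 changed by -0.13 in Sey, -0.35 in Leca4 and -0.43 in Leca2, and others of Fgfr2 reached -0.20 in Leca4 and -0.22 in Leca2. Of 20 Notch genes Dll3, Lfng and Notch2 rose (15%, against 5.21% of all genes higher), the last at 1 of its probe sets. Of 14 retinoid genes, Crabp2 and Dhrs3 rose and Rlbp1 fell (21.4%), and Dhrs3, a retinaldehyde reductase, changed by 0.00, 1.08 and 0.11. Of 14 hypoxia and glycolysis genes Ndrg1 and Slc2a1 fell (14.3%, against 3.38%). Of 10 p53 and apoptosis genes none was called with a shared sign, while 2 were called lower in the average, against 5.31% of all genes.

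Adhesion and guidance genes moved both ways, with 7 of 35 higher (20%) and 7 lower (20%), against 5.21% and 3.38% of all genes. Cdh8, a type II cadherin of cortical patterning, changed by -1.56, -1.20 and -0.14, and the semaphorin receptor Nrp1 by -1.47, -0.57 and -0.21. The chemokine Cxcl12 read 9.37, 9.39 and 9.41 in Sey controls and 7.29, 6.98, 6.34 and 6.77 in mutants, and 9.06, 9.42 and 9.26 in Leca2 controls and 7.91, 8.05, 7.91 and 7.34 in mutants. In Leca4 it read 9.69, 9.38, 9.65 and 9.75 against 9.47, 9.70 and 9.57. The Leca4 groups overlapped, and the others did not. Of 22 extracellular matrix genes Cd44 rose (4.55%) and Col11a1 and Lama1 fell (9.09%).

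A shared sign did not always mean a shared change. The F-test for a difference between lines was largest for Rlbp1, Adcyap1, Nrn1 and Pde1b. Adcyap1, the neuropeptide PACAP, read 9.89, 9.92 and 10.14 in Leca4 mutants and 7.47, 7.60, 7.61 and 7.66 in controls, a change of 2.4 beside 0.25 in Sey and 0.18 in Leca2. Nrn1, the neuritin of neurite growth, changed by -1.71 in Sey, -0.21 in Leca4 and -0.08 in Leca2, and Pde1b, a cyclic nucleotide phosphodiesterase, by -2.15, -0.52 and -0.16. Cryab, a small heat shock protein, and Cd44, a hyaluronan receptor, rose on average by 1.17 and 0.90 through Leca4, where they were at least 5.03-fold and at least 5.04-fold higher, with fitted changes of 0.25 and 0.04 in Sey and 0.19 and 0.07 in Leca2. Both Leca2 groups of Cryab, and for Cd44 both Sey groups and the Leca2 controls, lay at or below the filter level, so the shared sign of these genes rests on values at background.

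In the other 624 genes called in the average at least 1 line went the other way. The odd line was Leca4 in 282, Leca2 in 273 and Sey in 38, and 31 genes had a pair of lines against the average. The odd line was itself called in 8 genes for Leca4, 1 for Sey and 0 for Leca2. The smallest p-values belonged to Gbx2, Hs3st1, Napepld and Wls. Gbx2, a homeobox gene of the hindbrain border and thalamus, changed by 2.33 in Sey, -0.07 in Leca4 and -0.05 in Leca2, and both Leca lines were under the filter level. Wls, which carries Wnt proteins to the cell surface, changed by 2.99, -0.21 and 0.22, and the sulfotransferase Hs3st1 by -1.52, 0.10 and -0.12. Napepld, an enzyme of lipid signalling, changed by -1.05 in Sey and -0.92 in Leca2 but by 0.10 in Leca4.

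Genes beside Pax6 travel with the mutant allele, so that a variant linked to the allele and an effect of the allele cannot be told apart for them. Within 100 protein-coding genes of Pax6 on chromosome 2, 22 of 123 tested genes (17.9%, against 8.59% of all genes) were called with a shared sign, 17 higher and 5 lower. They included Immp1l, a mitochondrial peptidase subunit 2 genes away (0.35, 0.22 and 0.51), Mpped2, a phosphodiesterase 5 genes away (0.49, 0.50 and 0.01), Depdc7, 8 genes away on the other side (2.03, 0.19 and 0.31), Slc1a2 and Cd44. Of 442 genes on the sex chromosomes 32 were called with a shared sign, against 8.59% of all genes.

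Markers of other cells were followed beside these groups. Of 7 genes of meninges and mesenchyme, 2 rose with a shared sign, Crabp2 (1.78, 1.17 and 0.00) and Prrx1 (1.46, 0.95 and 0.33). That was 28.6%, against 5.21% of all genes higher. The summed linear level of the 7 lay between 1170 and 1290 in Sey mutants and between 587 and 676 in controls, between 1230 and 1520 against 852 and 1080 in Leca4, and between 1040 and 1230 against 888 and 1230 in Leca2. The sum weighs most the members of highest level. The median change of the 7 was 0.46 in Sey, -0.23 in Leca4 and 0.20 in Leca2, with 5, 3 and 5 of them above 0. The part of these cells in the rise of Zic1, Id3, Wnt5a, Cdkn1c or other genes was not tested. Of 17 endothelial genes Mfsd2a and Slc2a1 fell (11.8%, against 3.38% of all genes lower). The summed level of the 17 lay between 4650 and 4910 in Sey mutants against 5200 and 5680 in controls. Its ranges overlapped in both Leca lines. The median change of the 17 was 0.01 in Sey, 0 in Leca4 and -0.03 in Leca2, with 9, 8 and 8 of them above 0. Of 10 microglial genes C1qa rose (10%), through Leca4 (0.52), where the summed level lay between 2180 and 2420 against 1750 and 1930. None of 5 erythroid and 5 choroid plexus genes was called. Of 12 Cajal-Retzius genes 4 rose (33.3%), Cacna2d2, Calb2, Zic1 and Zic4, and Calb2, the calretinin of these early neurons, changed by 1.21, 0.21 and 0.19. Of 7 diencephalic genes Lhx9 rose (14.3%), with 1.73, 0.26 and 0.26.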

How the data were processed

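Transcripts of mouse rostral cortex were measured on 21 Affymetrix arrays. The deposited values are log2 expression per probe set, made by the authors with RMA, per the submitters' processing notes. For RMA settings and version, nothing is given in the sources used here. Array medians differ between lines, so normalization may have been done per line.

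Of 45101 probe sets, 34945 named 1 gene, of which 34884 matched the RefSeq gene table of GRCm38.p6, used for symbols and gene order. A probe set passed the filter on low values if it was above the 40th percentile of the array on 3 or more arrays. The kept probe set with the highest mean stood for each gene, giving 13850 of 18193 genes. A gene high in 1 group only could pass this filter through that group.

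One linear model of the 6 groups was fitted with limma 3.58.1 under R 4.3.3 (15 residual and 3.54 prior degrees of freedom), with the mean of the 3 within-line differences as contrast. Tests were two-sided, and p-values were Benjamini-Hochberg adjusted over 13850 genes. P-values measure the spread between arrays. Where all arrays of a group were under the filter level, the other group's mean was set against that level, as a lower bound on the fold.

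The members, the 27 gene lists and the rules were chosen with earlier results of these data known. The lists hold 453 symbols, 402 of them tested. Named were Pax6, the 12 higher and 12 lower genes with the largest smallest change among genes with all mutant arrays beyond the controls in every line, the 5 per direction with the largest other average, the 5 per direction called in no line, 4 with an opposing line, 4 near Pax6, 4 with the largest F, up to 3 per list and a set of index genes. Not all are printed, and genes named otherwise are said to be. Sequences came from the RefSeq promoter table.

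Replicate numbers were not taken to pair the samples. Of 9 same-numbered pairs, 2 had a correlation of deviations over 0.1, both in Leca2 (0.34 and 0.23). So few pairs cannot show that no pairing exists. Scripts were tested on simulated data with known changes. Other filters, probe set rules, variance models, scalings, thresholds, a term for sex, a replicate block, and leaving out arrays or lines were tried.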

Additional observations from a re-analysis of the deposited data

Results flagged for a closer look

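In 14 groups of 4 arrays, belonging to 12 genes, 1 array stood apart from the other 3 (Dixon's test at 95%). About 1 in 20 groups does so by chance, and 315 were tested. In Sey mutants, Notch2 read 9.49 on 1 array against 9.03 to 9.11 on the others, Nr2f1 10.31 against 11.31 to 11.36, Spry2 8.44 against 8.14 to 8.17 and Zic1 12.31 against 12.57 to 12.61. In Leca4 controls, Cd44 read 5.17 against 5.36 to 5.39, Dkk3 7.61 against 7.24 to 7.28 and Igfbp5 9.17 against 9.37 to 9.38. In Leca2 mutants, Igfbp5 read 8.37 against 8.0 to 8.04, Ildr2 7.94 against 8.12 to 8.13 and Notch2 10.63 against 10.14 to 10.21. The third Leca2 mutant array stood apart for Lmo7 (7.69 against 6.65 to 6.78), Msx3 (6.32 against 6.70 to 6.71), Trim68 (6.6 against 6.95 to 6.98) and Wls (6.34 against 6.15 to 6.17).

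For 62 of the genes named, the changes differed between the 3 lines by more than the spread between arrays (limma F-test, adjusted p under 0.05). They are grouped here by the line with the largest fitted change, which is not a measured size where a group lay at or below the filter level. Where Leca4 had the largest change, the adjusted p was 5.58e-10 for Adcyap1, 0.0381 for C1qa, 1.1e-07 for Cd44, 0.00627 for Cdkn1c, 6.83e-07 for Cryab and 1.57e-06 for Dhrs3. Further values were 0.0321 for Dkk3, 0.00162 for Mpped2, 0.0013 for Parm1, 0.000538 for Prkcb, 0.0124 for Slc14a1 and 0.0197 for Veph1. Where Leca2 had the largest change, the adjusted p was 0.0137 for Gna14. Where Sey had the largest change, the adjusted p was 0.000153 for 9130024F11Rik, 4.88e-05 for Aldoc, 8.59e-06 for Asb4, 0.00638 for Aspm, 0.000686 for Cacna2d2 and 0.0187 for Calb2. Further values were 3.64e-06 for Carhsp1, 0.000311 for Ccnd2, 0.000617 for Cdc6, 0.000107 for Cdh4, 5.07e-05 for Cdh8 and 0.0298 for Cenpf. It was 0.00503 for Crabp2, 5.48e-06 for Cxcl12, 3.63e-06 for Depdc7, 0.00259 for Dlk1, 0.0332 for Dll3 and 2.22e-05 for Dlx2. The adjusted p-values were 9.65e-05 for E2f2, 1.34e-07 for Eomes, 1.44e-10 for Gbx2, 3.85e-10 for Hs3st1, 0.016 for Id3 and 0.0197 for Lhx9. The F-test gave 0.000237 for Lig1, 0.0159 for Lmo4, 0.000109 for Mcm6, 0.000538 for Msx3, 3.9e-06 for Napepld and 0.0184 for Ndrg1. Then came 5.51e-07 for Neurod4, 1.82e-09 for Neurog1, 9.4e-06 for Neurog2, 1.7e-09 for Nrn1, 0.000293 for Nrp1 and 4.88e-05 for Olig2. The test gave 0.000531 for Paupar, 4.82e-09 for Pde1b, 0.00865 for Prrx1, 4.04e-05 for Ptf1a, 1.19e-14 for Rlbp1 and 3.29e-05 for Slc1a3. Next came 0.0321 for Spry2, 0.0355 for Syp, 0.0179 for Tbr1, 0.000252 for Tle1, 0.000116 for Top2a and 1.28e-08 for Wls. The next values were 0.0397 for Wnt7b.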

How the results depend on the processing

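Of 3968 results for named genes under other settings, 3792 kept their direction and their side of the threshold, 163 lost the call, 12 gained it and 1 reversed: Gbx2 without the Sey line (-0.06, adjusted p = 0.812 in limma). These labels concern the average and not the shared sign. Asking at least 0.1 of each line could therefore change none of them, and the looser threshold could lose no call. C1qa, Sfrp2 and Spry2 lost their call most readily. The counts moved more. With a replicate block, 683 genes were called higher and 412 lower, 235 were lower with the same sign and 242 differed between lines. The lines not used gave 72 (Sey), 79 (Leca4) and 18 (Leca2) calls. Under the block 724 genes met the rule, 644 of them among the 1190. Whether replicate numbers pair the samples is not known, so the counts without the block may be too high. With array weights, 1184 were called lower, 1126 and 816 were higher and lower with the same sign, and Sey and Leca2 not used gave 239 and 59. An average of at least 1.4-fold left 115 higher and 132 lower genes, 75 and 93 with the same sign, of which 110 differed. Weighting lines by their arrays gave 490 and 362, with 459 and 311 of the same sign. A term for sex left 270 genes that differed. Asking at least 0.1 of each line left 248 and 180, with 136 differing. Without the Sey line the counts were 231 and 141, with 181 and 123 of the same sign and 58 differing. Without Leca4 743 were lower with the same sign, and without Leca2 1106 and 828 were higher and lower. Leaving out 1 array at a time gave 793 to 1267 called higher, 546 to 874 lower, 500 to 914 and 304 to 615 with the same sign, 314 to 453 differing, and 96 to 164, 102 to 174 and 26 to 40 calls in Sey, Leca4 and Leca2 not used. The causes of these moves were not tested. Of the 1190 genes, 1133 remained under quantile normalization of all arrays, 1071 with the term for sex, 936 with the mean of probe sets and 1073 without the filter. Genes near background have only bounds on their fold.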

Other observations

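Several other genes whose mutant arrays lay beyond the controls in all 3 lines are given here as values; all but Carhsp1 and Prag1 were taken from the 69 such genes after their values were seen. Carhsp1, an RNA-binding protein, read 9.30, 9.36 and 9.21 in Sey controls and 10.80, 10.52, 10.64 and 10.53 in Sey mutants. It read 10.07, 10.23, 10.21 and 10.25 against 10.70, 10.49 and 10.63 in Leca4, and 9.90, 9.90 and 9.82 against 10.30, 10.30, 10.23 and 10.09 in Leca2. The gap was widest in Sey, and the average change was 0.70 ± 0.04 (adjusted p = 2.3e-09 in limma). Prag1, a pseudokinase, changed by 1.03, 0.75 and 0.40 in Sey, Leca4 and Leca2, but its second probe set gave 0.03 on average (adjusted p = 0.749 in limma).

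Among lower genes, Jph1, a junctophilin that joins the plasma membrane to the endoplasmic reticulum, changed by -2.51, -0.34 and -0.80. Sema3a, a secreted repellent of axons, changed by -1.29, -0.66 and -0.25, and Tshr, the thyrotropin receptor, by -0.43, -0.85 and -0.42. Among higher genes, Lgals1, the lectin galectin-1, changed by 0.66, 1.98 and 0.23, and Npnt, the matrix protein nephronectin, by 0.37, 2.09 and 0.19. These 2 had their largest change in Leca4, as did Cd44, Cryab and Adcyap1.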
